A study of Mus musculus with 24 samples.

Results

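Thyroid hormone handling in the heart was described through 7 genes: the deiodinases Dio2, Dio1 and Dio3, the thyroid hormone receptors Thra and Thrb, and the retinoid X receptors Rxra and Rxrg. They were chosen by name as a gene set after earlier results of these data were known, among them the log2 signal of Dio2 across the 6 groups, and each was read from the probe set that named it alone and had the highest mean signal, out of 18193 genes that the platform annotation named in this way. Of the 7 genes, 6 had a probe set, 12 probe sets in all, and 5 of them (Dio2, Thra, Thrb, Rxra and Rxrg) passed the filter on dim signal, so that 10 probe sets were kept. Dio1 was below each array's 40th percentile on all 24 arrays, and Dio3 was not analysed here.

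The hearts came from FVB/N mice of 3 genotypes, which carried a dominant negative phosphoinositide 3-kinase transgene (dnPI3K), a constitutively active one (caPI3K), or no transgene (Ntg), both transgenes being expressed in the heart. At 4 months of age the mice had an operation that caused a myocardial infarction (MI) or a sham operation, and 8 weeks later the heart was removed for total RNA. This gave dnPI3K MI, dnPI3K sham, caPI3K MI, caPI3K sham, Ntg MI and Ntg sham hearts, with 4 arrays each. The study set infarcted against sham hearts within each genotype and then compared these differences between the genotypes. The group of each array was taken from its title. For the 4 caPI3K MI arrays the name of 1 label field reads sham, while the text of that field, the title and the source name all give an infarction, and the title was followed for every caPI3K value below. The sources used here do not name the promoter that drives each transgene. Comparisons of genotypes among infarcted hearts were added after the data were seen.

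Thyroxine, the main product of the thyroid, is a prohormone. The deiodinase encoded by Dio2 removes an outer-ring iodine and makes the active hormone T3 inside the cell, Dio1 encodes a second enzyme of this kind that is abundant in liver and kidney, and Dio3 encodes the enzyme that inactivates T3. T3 binds the receptors encoded by Thra, the main form in heart, and Thrb, which act on DNA mostly as pairs with a retinoid X receptor, and in heart muscle T3 sets contractile, ion channel and metabolic genes.

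Signals were scaled by the authors to the same trimmed mean on each array. Median signals were 103 to 119 units on 23 arrays and 151 on dnPI3K MI replicate 1, and pairs of arrays correlated at 0.91 to 0.964. The 9 cardiomyocyte markers summed to between 372885 and 550044 signal units on all 24 arrays. On 3 of the 4 caPI3K sham arrays, replicates 1 to 3, the Y-linked gene Eif2s3y had 1485 to 2027 units, against 1.87 to 41.31 units on the other 21 arrays, and the labels do not give sex. Ntg sham replicate 4 stood apart from its group, with 49870 units of Nppa, a natriuretic peptide gene raised in stressed heart muscle, against 11340 to 19730 units on the other 3 Ntg sham arrays. The sham arrays numbered 415 to 418 (replicates 1 and 2 of Ntg sham and of dnPI3K sham) carry neighbouring numbers, unlike the other 2 arrays of these groups. Where leaving these arrays out ended a call of a gene named below, the value or count without them is given.

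The promoters of Dio2 and Rxrg are shown, since Dio2 had the largest differences of the 5 genes between infarcted and sham hearts, and Rxrg those between dnPI3K hearts and the other genotypes. Each window holds the 250 bases before an annotated start, 5′ to 3′ on the gene's strand, from RefSeq on build GRCm38.p6, and Rxrg has 2 annotated starts. Capitals mark a cAMP response element (TGACGTCA), a TATA box (TATAAA) or a nuclear receptor half-site (AGGTCA). The Dio2 window is chr12:90739039-90739288 on the minus strand, and the Rxrg windows are chr1:167598112-167598361 and chr1:167618015-167618264 on the plus strand.
Dio2: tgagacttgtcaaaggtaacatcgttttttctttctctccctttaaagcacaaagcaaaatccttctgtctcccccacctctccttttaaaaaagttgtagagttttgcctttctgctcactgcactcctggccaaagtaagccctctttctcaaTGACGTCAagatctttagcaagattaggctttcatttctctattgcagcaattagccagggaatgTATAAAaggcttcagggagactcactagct
Rxrg, first start: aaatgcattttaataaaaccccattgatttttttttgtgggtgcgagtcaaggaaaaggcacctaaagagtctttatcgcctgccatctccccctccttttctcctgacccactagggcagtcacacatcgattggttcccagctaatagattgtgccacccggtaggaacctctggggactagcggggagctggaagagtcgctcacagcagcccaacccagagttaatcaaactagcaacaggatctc
Rxrg, second start: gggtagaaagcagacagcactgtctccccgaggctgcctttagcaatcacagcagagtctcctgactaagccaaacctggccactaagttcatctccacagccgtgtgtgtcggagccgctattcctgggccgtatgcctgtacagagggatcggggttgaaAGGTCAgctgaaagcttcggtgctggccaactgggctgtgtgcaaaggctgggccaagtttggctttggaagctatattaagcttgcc
In the Dio2 window the cAMP response element lies at positions -95 to -88 from the start, and the TATA box at -30 to -25. A cAMP response element of this kind is known to drive human DIO2. In the window of the second Rxrg start a half-site lies at -88 to -83. On either strand, 1.55% of 32851 mouse promoter windows of the same length held the cAMP response element, 12.37% the TATA box and 14.02% the half-site. The motifs were chosen after the values were seen, and 4 others were also searched: FoxO (GTAAACA, in 3.17% of windows), GATA (GATAA, 22.58%), NKX2-5 (AAGTG, 40.71%) and AP-1 (TGAGTCA, 4.46%). Of these, the first Rxrg window held GATAA on the minus strand, the printed windows held no other match, and no matches of different motifs overlapped. A match describes letters only and is not a binding site.

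Dio2, the gene of the T3-making deiodinase, had higher signal in infarcted than in sham hearts of all 3 genotypes. In dnPI3K MI hearts its signal was 356.2, 483.2, 539.0 and 730.6 units, against 164.4, 132.0, 134.5 and 85.62 units in dnPI3K sham hearts. In caPI3K MI hearts it was 400.2, 325.7, 434.7 and 416.5 units, against 82.1, 120.3, 64.62 and 87.34 units in caPI3K sham hearts. In Ntg MI hearts it was 417.6, 519.9, 675.8 and 321.2 units, against 109.5, 128.2, 62.53 and 318.3 units in Ntg sham hearts. The infarcted and sham arrays did not overlap in any genotype, although in Ntg hearts the lowest infarcted array lay only just above sham replicate 4. Arrays that do not overlap were found for 13.4% of all genes tested in dnPI3K, 9.37% in caPI3K and 4.72% in Ntg hearts.

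On the log2(signal + 11.3) scale, Dio2 averaged 9.03 ± 0.42 in dnPI3K MI and 7.10 ± 0.36 in dnPI3K sham hearts, 8.66 ± 0.18 in caPI3K MI and 6.61 ± 0.33 in caPI3K sham hearts, and 8.90 ± 0.45 in Ntg MI and 7.15 ± 0.90 in Ntg sham hearts (SD, n = 4 each). The difference between infarcted and sham hearts was 1.93 in dnPI3K hearts (95% interval 1.28 to 2.58), a 3.80-fold higher signal. It was 2.04 in caPI3K hearts (1.39 to 2.69), or 4.12-fold, and 1.75 in Ntg hearts (1.10 to 2.40), or 3.36-fold, each with a standard error of 0.32. Because Dio2 was chosen with these differences known, they are a description, with no test. The model's count past the threshold was 1 of the 5 genes, Dio2, in each genotype, beside 9.4% of all genes in dnPI3K, 1.11% in caPI3K and 0.773% in Ntg hearts, and nothing is read from that count. Dio2 left the count in Ntg hearts without the sham arrays numbered 415 to 418 and with the mean of its probe sets, and in caPI3K hearts without the arrays with Y-linked signal. Without Ntg sham replicate 4 the difference in Ntg hearts was 2.15, without the sham arrays numbered 415 to 418 it was 1.61, and in caPI3K hearts, with replicate 4 as the only sham array so that no array had Y-linked signal, it was 2.03.

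**Figure D1:**
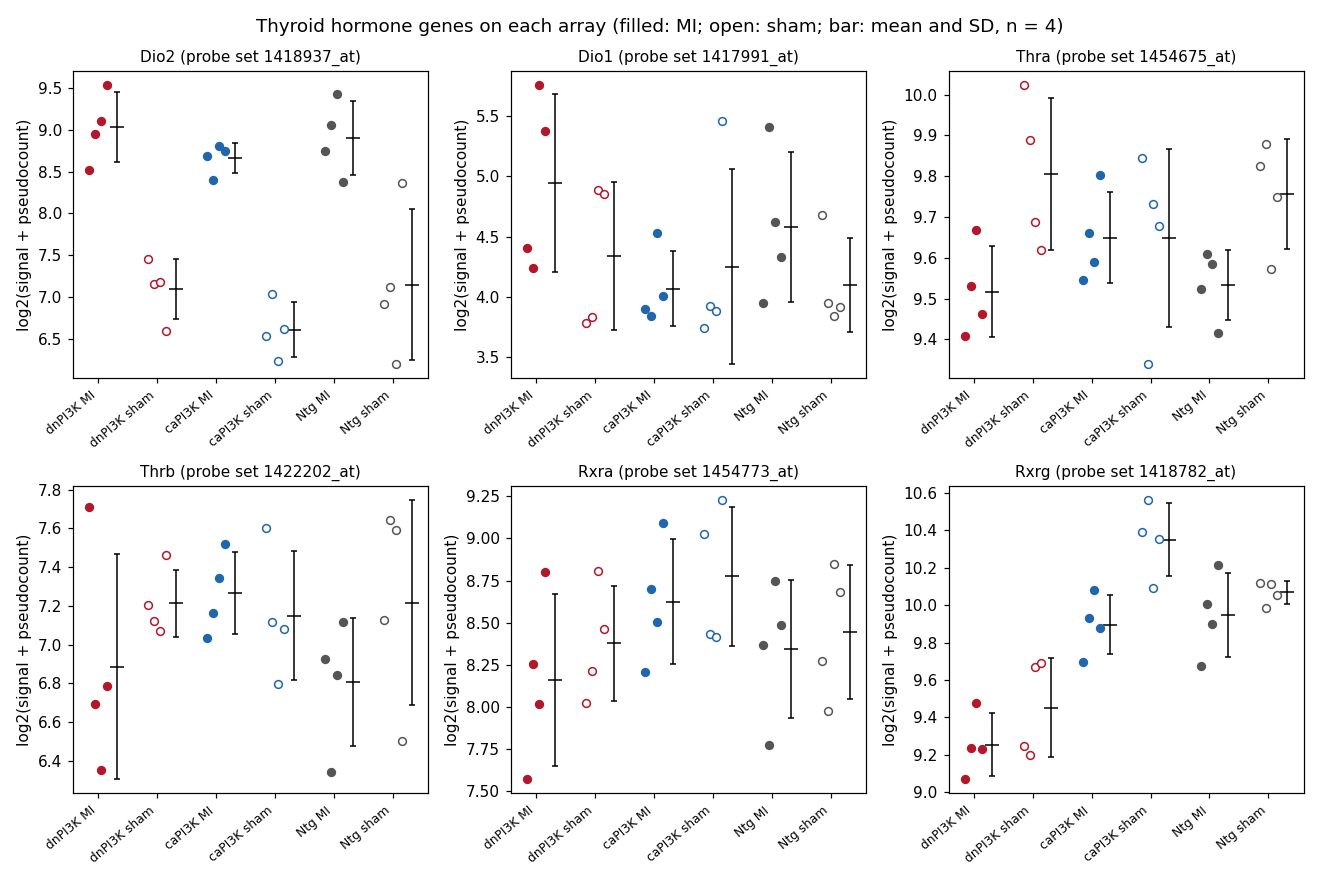
Signal of 6 thyroid hormone genes on each of the 24 arrays, as log2(signal + 11.3), with filled points for MI and open points for sham hearts and a bar for the mean and SD of 4 arrays. Dio2 is higher in every infarcted group than in its sham group, and Rxrg lies lowest in both dnPI3K groups, at means of 9.25 in MI and 9.45 in sham hearts.

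The size of the Dio2 difference was not told apart between the genotypes. The infarction effect in dnPI3K minus that in Ntg hearts was 0.18 (95% interval -0.74 to 1.10), that in caPI3K minus Ntg hearts was 0.30 (-0.62 to 1.21), and that in caPI3K minus dnPI3K hearts was 0.12 (-0.80 to 1.04). Each interval leaves room for a change of sign and for a difference of more than 1 log2 unit. For these differences of effects limma with Benjamini-Hochberg adjustment called 0% of the 14753 genes, and 1121, 817 and 1501 genes had an unadjusted p under 0.05. Among sham hearts, Dio2 differed by -0.05 in dnPI3K against Ntg (-0.70 to 0.60) and by -0.54 in caPI3K against Ntg (-1.19 to 0.11). Among infarcted hearts, it differed by 0.13 in dnPI3K against Ntg (-0.52 to 0.78) and by -0.24 in caPI3K against Ntg (-0.89 to 0.41). The infarction effects and the sham comparisons share sham arrays, and both transgenic groups are set against the same Ntg arrays.

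The other Dio2 probe sets were dimmer and showed the difference less evenly. On probe set 1426081_a_at the signal was 253.1 to 443.6 units in dnPI3K MI and 51.48 to 170.5 units in dnPI3K sham hearts, 187.1 to 327.7 units in caPI3K MI and 69.77 to 147.6 units in caPI3K sham hearts, and 232.2 to 317.9 units in Ntg MI and 54.53 to 265.5 units in Ntg sham hearts. The log2 differences there were 1.79 in dnPI3K, 1.25 in caPI3K and 1.48 in Ntg hearts, and the groups overlapped only in Ntg hearts. On the dimmest probe set, 1418938_at, infarcted and sham arrays overlapped in all 3 genotypes. Its log2 differences were 0.49 in dnPI3K (95% interval -0.53 to 1.51), 1.40 in caPI3K (0.38 to 2.42) and 0.41 in Ntg hearts (-0.61 to 1.43). All 9 differences, over 3 probe sets and 3 genotypes, were above 0. With the mean of the 3 probe sets in place of the brightest, the difference in Ntg hearts was 1.21.

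**Figure D2:**
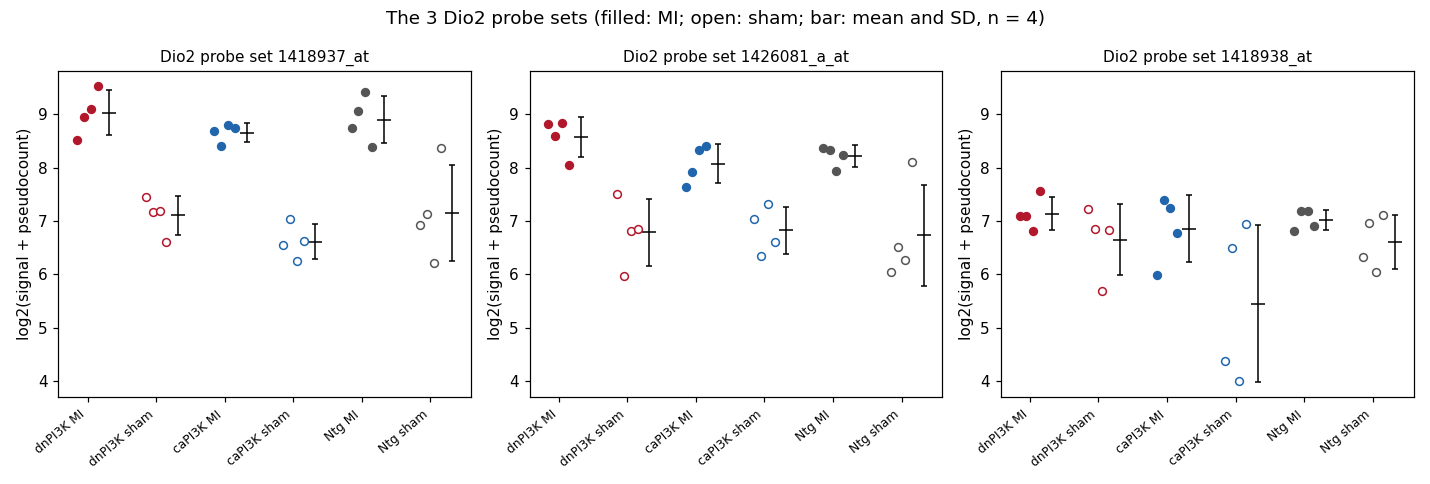
Signal of the 3 Dio2 probe sets on each array, as log2(signal + 11.3), with filled points for MI and open points for sham hearts and a bar for the mean and SD of 4 arrays. The infarcted and sham arrays are apart in all genotypes on 1418937_at and overlap in all genotypes on 1418938_at, where 2 caPI3K sham arrays lie near 4.

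Markers of fibroblasts moved with Dio2. All 10 fibroblast markers passed the filter, and of these 6 rose with infarction in dnPI3K hearts, 4 in caPI3K hearts and 5 in Ntg hearts, with none falling. Of all genes tested, 4.22% rose in dnPI3K, 0.854% in caPI3K and 0.678% in Ntg hearts. Their median difference was 1.00 in dnPI3K, 0.79 in caPI3K and 0.87 in Ntg hearts, against 0.010, -0.002 and -0.005 over all genes tested. Their summed signal was 105593 to 130466 units in dnPI3K MI and 74921 to 87304 units in dnPI3K sham hearts, 95643 to 107276 units in caPI3K MI and 65847 to 75996 units in caPI3K sham hearts, and 93603 to 111009 units in Ntg MI and 58374 to 106683 units in Ntg sham hearts. The highest Ntg sham value was again replicate 4. Without the sham arrays numbered 415 to 418, 4 markers rose in dnPI3K and 0 in Ntg hearts. Leaving out the arrays with Y-linked signal leaves only caPI3K sham replicate 4, so the caPI3K count could not be judged without them. The part of fibroblasts in the Dio2 difference was not tested, and in bulk tissue more cells of a type and more RNA per cell cannot be told apart.

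Over the 24 arrays, Dio2 correlated with the median deviation of the fibroblast markers at r = 0.89, and at 0.52 once each group's mean was taken off. The 5 genes most like Dio2 over the 24 arrays were Mfap4 (r = 0.93), Postn (0.92), Ltbp2 (0.91), Col5a2 (0.91) and Islr (0.91). With group means taken off, r was 0.61 for Mfap4, 0.64 for Postn, 0.72 for Ltbp2, 0.60 for Col5a2 and 0.47 for Islr. All 5 encode proteins secreted into the extracellular matrix or the space around cells. These correlations describe arrays that share a scaling and the same split into infarcted and sham hearts, and Postn and Islr are among the fibroblast markers. Of the 8 macrophage markers, 0 passed the threshold in each of the 3 genotypes, with median differences of 0.44 in dnPI3K, 0.38 in caPI3K and 0.13 in Ntg hearts. Their summed signal was 21373 to 30912 units in dnPI3K MI and 16258 to 27696 units in dnPI3K sham hearts, 20955 to 26954 units in caPI3K MI and 15233 to 19392 units in caPI3K sham hearts, and 18762 to 28599 units in Ntg MI and 15191 to 22634 units in Ntg sham hearts, which were apart only in caPI3K hearts. Of all genes tested, 9.4% passed with infarction in dnPI3K, 1.11% in caPI3K and 0.773% in Ntg hearts. Of 6 atrial markers, Nppa and Sln rose in Ntg hearts (list median 1.23), Nppa rose in caPI3K hearts (median -0.38) and Stard10 fell in dnPI3K hearts (median -0.35). With arrays 415 to 418 left out, no atrial marker passed in Ntg and in dnPI3K hearts, and without the arrays with Y-linked signal 0 passed in caPI3K hearts. The part of macrophages and of atrial tissue in the Dio2 difference was not tested. Dio2 is known for its role in brown fat, and of 6 brown fat markers 3 entered the model, with 0 rising with infarction in each of the 3 genotypes and Cox7a1, a cytochrome oxidase subunit also found in heart, falling in dnPI3K hearts (-0.47, limma adjusted p = 0.000779).

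**Figure D3:**
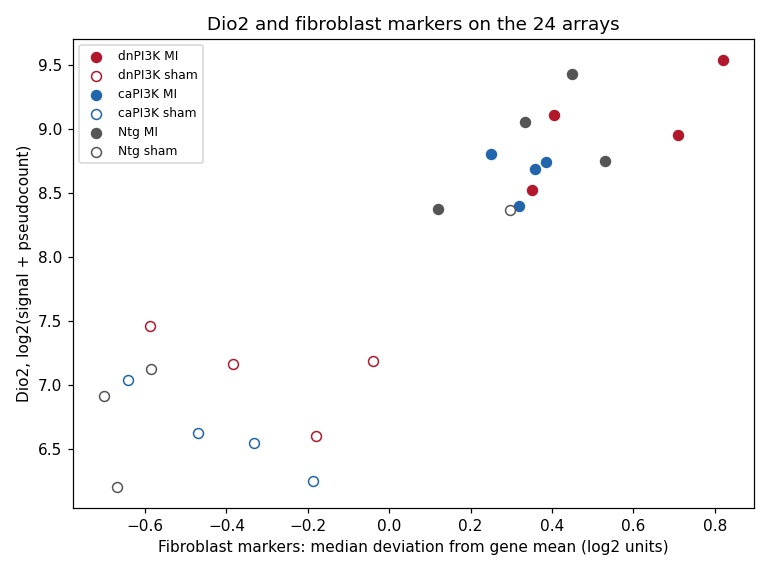
Dio2 signal as log2(signal + 11.3) against the median deviation of 10 fibroblast markers from their means (log2 units), 1 point for each of the 24 arrays, filled for MI and open for sham hearts. The infarcted arrays lie at the upper right, and Ntg sham replicate 4, at 8.36 for Dio2 and 0.30 for the markers, lies among them.

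Dio1 had signals of 2.079 to 42.92 units over the 24 arrays, below the filter on all of them. Its signal was 7.622 to 42.92 units in dnPI3K MI and 2.498 to 18.31 units in dnPI3K sham hearts, 3.072 to 11.75 units in caPI3K MI and 2.079 to 32.68 units in caPI3K sham hearts, and 4.128 to 31.31 units in Ntg MI and 3.038 to 14.36 units in Ntg sham hearts, so that infarcted and sham arrays overlapped in every genotype. With no filter, the log2 difference between infarcted and sham hearts was 0.61 in dnPI3K (95% interval -0.31 to 1.53), -0.18 in caPI3K (-1.10 to 0.74) and 0.48 in Ntg hearts (-0.44 to 1.40), and none passed the threshold in limma. The noncoding RNA Dio3os, which is made from the strand opposite Dio3, had 15.26 to 253.6 units over the 24 arrays, and its arrays overlapped between infarcted and sham hearts in every genotype.

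Thra, the main T3 receptor gene of the heart, was read from probe set 1454675_at. Its signal was 668.1 to 802.3 units in dnPI3K MI and 774.4 to 1030 units in dnPI3K sham hearts, 735.6 to 881.6 units in caPI3K MI and 636.7 to 907.9 units in caPI3K sham hearts, and 671.5 to 769.4 units in Ntg MI and 750.5 to 930.9 units in Ntg sham hearts. The arrays overlapped in every genotype. The log2 difference between infarcted and sham hearts was -0.29 in dnPI3K (95% interval -0.52 to -0.06, limma adjusted p = 0.113), 0.00 in caPI3K (-0.23 to 0.23, adjusted p = 0.998) and -0.22 in Ntg hearts (-0.45 to 0.01, adjusted p = 0.433). None passed the threshold, and the difference of effects between caPI3K and dnPI3K hearts was 0.29 (-0.04 to 0.61, adjusted p = 0.563).

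The other Thra probe sets did not give the same signs. In dnPI3K hearts the infarction difference was 0.37 on 1443952_at (95% interval 0.00 to 0.74) and 0.03 on 1426997_at (-0.30 to 0.37), against -0.29 on the brightest. In caPI3K hearts it was -0.18 on 1443952_at (-0.55 to 0.19) and -0.43 on 1426997_at (-0.77 to -0.09), against 0.00. The 3′ end of Thra overlaps Nr1d1, a clock repressor gene on the opposite strand, and Nr1d1 itself had 227.8 to 842.0 units over the 24 arrays. The part of this overlap in the disagreement was not tested. The genes most like Thra over the 24 arrays were Gdpd3 (r = 0.86), Adgrf5 (0.80) and Atp5k (0.78).

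Thrb, the gene of the second T3 receptor, has 1 probe set. Its signal was 70.54 to 198.1 units in dnPI3K MI and 123.1 to 164.9 units in dnPI3K sham hearts, 119.5 to 172.3 units in caPI3K MI and 99.96 to 183.0 units in caPI3K sham hearts, and 69.95 to 127.7 units in Ntg MI and 79.36 to 188.8 units in Ntg sham hearts. All pairs of groups overlapped. The log2 infarction difference was -0.33 in dnPI3K (95% interval -0.93 to 0.28, limma adjusted p = 0.572), 0.12 in caPI3K (-0.49 to 0.72, adjusted p = 0.936) and -0.41 in Ntg hearts (-1.01 to 0.20, adjusted p = 0.651). The genes most like it were Zfp354b (r = 0.73), Got1l1 (0.70) and 2210409D07Rik (0.69).

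**Figure D4:**
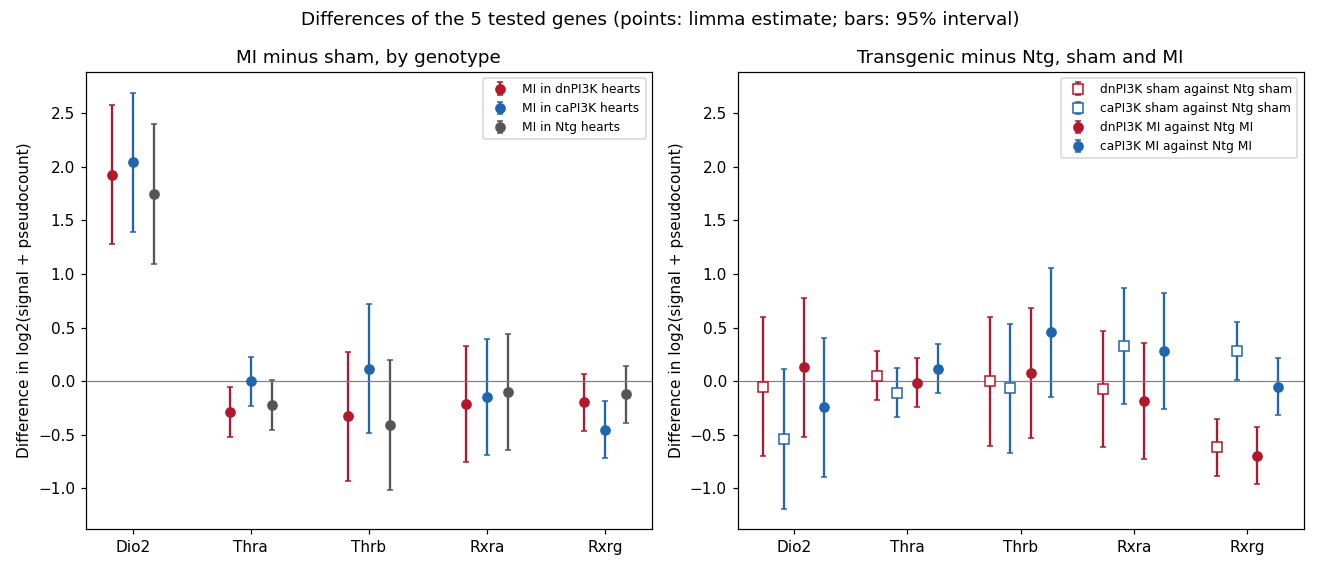
Differences in log2(signal + 11.3) for the 5 genes that passed the filter, with limma estimates as points and 95% intervals as bars. The left panel sets MI against sham hearts in each genotype, where Dio2 lies at 1.75 to 2.04, and the right panel sets transgenic against Ntg hearts, where Rxrg lies at -0.62 in dnPI3K sham and -0.69 in dnPI3K MI hearts.

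Rxra, a retinoid X receptor gene expressed in most tissues, was read from probe set 1454773_at. Its signal was 178.5 to 434.0 units in dnPI3K MI and 248.7 to 437.2 units in dnPI3K sham hearts, 283.4 to 535.2 units in caPI3K MI and 329.9 to 588.8 units in caPI3K sham hearts, and 207.1 to 418.4 units in Ntg MI and 239.9 to 450.4 units in Ntg sham hearts. The arrays overlapped in every genotype. Its log2 infarction difference was -0.22 in dnPI3K (95% interval -0.76 to 0.32, limma adjusted p = 0.699), -0.15 in caPI3K (-0.69 to 0.39, adjusted p = 0.896) and -0.10 in Ntg hearts (-0.64 to 0.44, adjusted p = 0.932). On the other kept probe set, 1425762_a_at, the differences were -0.51, 0.22 and 0.25, so that the sign turned in caPI3K and Ntg hearts, and dnPI3K MI replicate 1 had 36.21 units there, against 198.5 to 431.7 units on the other 3 arrays of the group. The genes most like Rxra were 9230114K14Rik (r = 0.75), Pramel12 (0.73) and Sfr1 (0.72).

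Rxrg, the retinoid X receptor gene whose expression is concentrated in muscle and brain, was lower in dnPI3K hearts than in Ntg hearts, in sham and in infarcted hearts alike. Its signal was 596.6, 575.9, 802.0 and 815.9 units in dnPI3K sham hearts, 1331, 1499, 1081 and 1296 units in caPI3K sham hearts, and 1101, 1001, 1095 and 1053 units in Ntg sham hearts. All 4 dnPI3K sham arrays lay below all other sham arrays, while caPI3K sham replicate 3 lay within the range of the Ntg sham arrays. The signal was 526.3, 591.4, 702.0 and 589.0 units in dnPI3K MI hearts, 817.2, 963.6, 1069 and 929.6 units in caPI3K MI hearts, and 805.1, 1018, 942.1 and 1175 units in Ntg MI hearts. All 4 dnPI3K MI arrays lay below all other infarcted arrays, and the caPI3K and Ntg arrays overlapped. Between dnPI3K and Ntg hearts, the arrays of 5.61% of all genes tested were apart in sham and 7.94% in infarcted hearts. Between caPI3K and dnPI3K hearts, the shares were 16.8% in sham and 10% in infarcted hearts.

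Rxrg was 0.652-fold in dnPI3K sham against Ntg sham hearts, a log2 difference of -0.62 ± 0.13 (SE, limma adjusted p = 0.011). It was the only one of the 5 genes tested that passed in this comparison, where 1.15% of all genes did. In infarcted hearts the same comparison gave -0.69 ± 0.13 (0.618-fold, limma adjusted p = 0.00269), again with Rxrg alone of the 5 genes, against 2.59% of all genes. In caPI3K against dnPI3K hearts, Rxrg was 1.86-fold in sham hearts (log2 difference 0.90 ± 0.13, limma adjusted p = 3.2e-05), where 9.9% of all genes passed, and 1.56-fold in infarcted hearts (0.64 ± 0.13, limma adjusted p = 0.00319), where 4.24% did. These comparisons share the dnPI3K arrays. The 5 genes were chosen with earlier results of these data known, so these adjusted p are not independent evidence.

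Between caPI3K and Ntg hearts no difference of Rxrg passed the threshold. It was 0.28 in sham hearts (95% interval 0.02 to 0.55, limma adjusted p = 0.413), where 0.278% of all genes passed and 0 of the 5, and -0.05 in infarcted hearts (-0.32 to 0.21, adjusted p = 0.999), where 0% of all genes passed and 682 had an unadjusted p under 0.05. By group mean on the log2(signal + 11.3) scale the order was dnPI3K MI (9.25 ± 0.17), dnPI3K sham (9.45 ± 0.27), caPI3K MI (9.89 ± 0.16), Ntg MI (9.95 ± 0.22), Ntg sham (10.07 ± 0.06) and caPI3K sham (10.35 ± 0.19) (SD, n = 4 each). Neighbours in this order did not differ past the threshold where they were compared, and dnPI3K sham and caPI3K MI hearts were not compared.

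The dnPI3K sham arrays were split, with replicates 1 and 2 (arrays 417 and 418) at 596.6 and 575.9 units and replicates 3 and 4 at 802.0 and 815.9 units. With the sham arrays numbered 415 to 418 as a block, which holds 2 arrays of each group and was added after the data were seen, the difference from Ntg sham hearts was -0.62 and passed (limma adjusted p = 0.00687). Without these 4 arrays the difference was -0.40 and no longer passed (limma adjusted p = 0.596). Without dnPI3K sham replicate 1 it was -0.55 (limma adjusted p = 0.0586), and without replicate 2 it was -0.53 (adjusted p = 0.0803). The difference between dnPI3K MI and Ntg MI hearts, which uses none of these arrays, had limma adjusted p of at most 0.0198 over all 16 alternatives. The difference between caPI3K and dnPI3K sham hearts was 0.67 to 0.98 over its 16 alternatives. These include the fit without the arrays with Y-linked signal, where replicate 4 is the only caPI3K sham array. Rxrg has 1 probe set, so no other probe set could be set beside it.

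With infarction, the log2 difference of Rxrg was -0.20 in dnPI3K (95% interval -0.46 to 0.07, limma adjusted p = 0.405), -0.45 in caPI3K (-0.72 to -0.19, adjusted p = 0.0857) and -0.12 in Ntg hearts (-0.39 to 0.15, adjusted p = 0.796). None passed, although the caPI3K MI arrays all lay below the caPI3K sham arrays, as the arrays of 9.37% of all genes did in 1 direction or the other. Without caPI3K sham replicate 3 the caPI3K difference was -0.54 and passed (limma adjusted p = 0.0485). Without the 3 arrays with Y-linked signal it was -0.46 (adjusted p = 0.692). The effect in caPI3K minus that in Ntg hearts was -0.33 (-0.71 to 0.04, adjusted p = 0.901).

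Other markers beside the Rxrg difference were as follows. Of 9 cardiomyocyte markers, 0 passed between dnPI3K and Ntg hearts, in sham and in infarcted hearts. Of 6 atrial markers, Myl7 (-2.01), Myl4 (-1.30) and Stard10 (-0.49) were lower in dnPI3K MI than in Ntg MI hearts by limma's adjusted p, while in sham hearts Nppa alone passed and was higher in dnPI3K hearts (1.65), and 0 passed there without the sham arrays numbered 415 to 418. The median deviation of the atrial markers from their means was -1.02 to 0.02 in dnPI3K MI and 0.35 to 0.74 in Ntg MI hearts, with the arrays apart and a list median difference of -0.89, and in sham hearts it was -0.25 to 0.56 in dnPI3K and -1.56 to 0.42 in Ntg hearts. Their summed signal, most of which is Nppa, was 58297 to 65044 units in dnPI3K MI and 53091 to 61243 units in Ntg MI hearts, and 60293 to 71246 units in dnPI3K sham and 14388 to 58471 units in Ntg sham hearts. Of the other lists, Tcf21 of 10 fibroblast markers and Emcn of 7 endothelial markers were higher in dnPI3K MI than in Ntg MI hearts. These passed by limma's adjusted p, beside 2.59% of all genes, with list medians of 0.18 and 0.19. Of 3 brown fat markers measured, Cidea was lower in dnPI3K sham than in Ntg sham hearts (list median -0.46), where 1.15% of all genes passed. In caPI3K against dnPI3K infarcted hearts, where 4.24% of all genes passed, Ckmt2 was higher and Tcf21, Acta2 and Tagln were lower. List medians there were 0.009 for 9 cardiomyocyte, -0.21 for 10 fibroblast and -0.40 for 5 smooth muscle markers. In the sham hearts, where 9.9% of all genes passed, Cidea, Cx3cr1 and Smtn were higher, and Nppa, Tcf21, Adipoq and Retn were lower. In these sham hearts the list median was 0.47 for 3 brown fat, -1.09 for 3 white fat and -0.145 for 10 fibroblast markers. It was -0.09 for 8 macrophage, -0.19 for 5 smooth muscle and 0.60 for 6 atrial markers, opposite in sign to Cx3cr1, Smtn and Nppa. The part of these markers in the Rxrg difference was not tested. The genes most like Rxrg over the 24 arrays were Neurl2 (r = 0.93), Amy1 (0.93) and Slc25a20 (0.92), which carries acylcarnitines into mitochondria, with r of 0.62, 0.50 and 0.66 once group means were taken off. Among the 5 genes themselves, r over the 24 arrays lay between -0.47 (Dio2 and Thrb) and 0.46 (Rxra and Rxrg).

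Genes known to be raised by T3 in heart, or in liver in the case of Me1 and Thrsp, were read from a list of 16, of which 13 entered the model. In dnPI3K hearts 4 of the 13 fell with infarction and 0 rose, with a median of -0.31 against 0.01 over all genes, where 9.4% of all genes passed and 5.19% fell. They were Slc2a4, the insulin-responsive glucose transporter (-0.56, limma adjusted p = 0.00077), Kcnd2, a potassium channel subunit (-0.66, adjusted p = 0.00661), Atp2a2, the calcium pump of the sarcoplasmic reticulum (-0.31, adjusted p = 0.0154), and Ppargc1a, a coactivator of mitochondrial genes (-0.64, adjusted p = 0.0354), the last of which was named after its values were seen. In caPI3K hearts 0 of the 13 passed, with a median of -0.16, and in Ntg hearts 0 of the 13, with a median of -0.19, where 1.11% and 0.773% of all genes passed, and the difference between genotypes passed for none of the 13. Cardiomyocyte markers moved in the same comparisons: 2 of 9 fell in dnPI3K hearts, Tnni3 (-0.35) and Ckmt2 (-0.29), with a list median of -0.24, and 0 passed in caPI3K hearts (median -0.06) and in Ntg hearts (median -0.24). Their summed signal was 373803 to 420704 units in dnPI3K MI and 424657 to 543410 units in dnPI3K sham hearts, 372885 to 435512 units in caPI3K MI and 417377 to 446507 units in caPI3K sham hearts, and 390424 to 422394 units in Ntg MI and 423255 to 550044 units in Ntg sham hearts. With quantile normalization Tnni3 alone passed and the median of the cardiomyocyte markers in dnPI3K hearts was -0.05, and without the sham arrays numbered 415 to 418 Ckmt2 alone passed. Their part in the fall of the T3-raised genes was not tested.

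Slc2a4 had 4402, 5150, 4852 and 4494 units in dnPI3K MI hearts, against 7371, 6317, 7343 and 6932 units in dnPI3K sham hearts. Kcnd2 had 447.1, 474.6, 507.9 and 507.5 units in dnPI3K MI hearts, against 665.6, 599.6, 970.3 and 912.7 units in dnPI3K sham hearts. Neither gene's infarcted and sham arrays overlapped, as was so for 13.4% of all genes tested in dnPI3K hearts, and both passed under all 16 alternatives. Atp2a2 did not pass with quantile normalization (-0.09, limma adjusted p = 0.229), without the sham arrays numbered 415 to 418 (adjusted p = 0.103) or without dnPI3K sham replicate 1 (adjusted p = 0.0816). Its signals of 41320 to 62290 units all lay above the 99th percentile of their arrays, which was 16086 to 20892 units. Ppargc1a did not pass in 5 of the 8 fits that left out 1 array, without dnPI3K sham replicate 1, 2 or 4 or dnPI3K MI replicate 3 or 4 (adjusted p up to 0.178), nor without the sham arrays numbered 415 to 418 (adjusted p = 0.202). Nor did Ppargc1a pass with quantile normalization, with no intensity trend or without the arrays with Y-linked signal. With quantile normalization the median of the 13 genes was -0.09, and 2 fell.

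**Figure D5:**
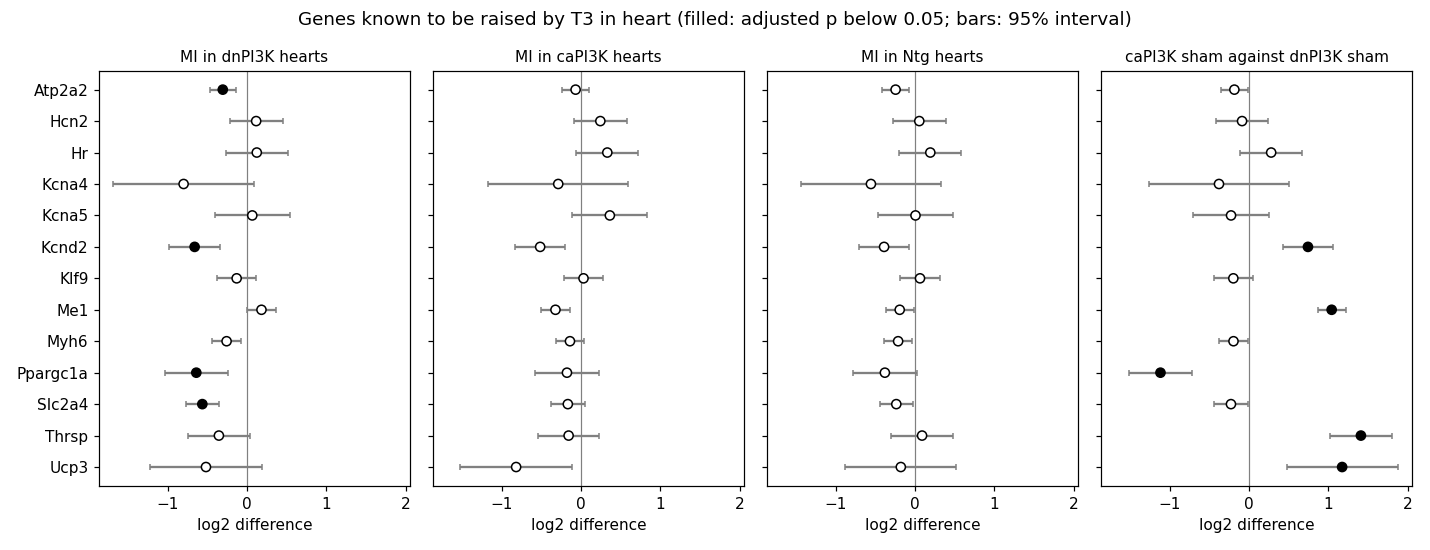
Log2 differences of 13 genes known to be raised by T3, with limma estimates as points (filled where the adjusted p was below 0.05) and 95% intervals as bars. In dnPI3K hearts 4 genes fell with infarction, in caPI3K and Ntg hearts 0 passed, and between caPI3K and dnPI3K sham hearts 4 were higher and 1 was lower in caPI3K.

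Between the genotypes, 3 of the 13 were lower in dnPI3K MI than in Ntg MI hearts, where 2.59% of all genes passed and 1.93% were lower. The list median there was -0.08, against 0.01 over all genes. Me1, which encodes malic enzyme, had 1906, 1819, 1836 and 2382 units in dnPI3K MI and 2309, 2596, 2573 and 2658 units in Ntg MI hearts, and 1690, 1552, 1809 and 1927 units in dnPI3K sham and 2942, 2747, 2797 and 3110 units in Ntg sham hearts. It was lower in dnPI3K against Ntg hearts, by a log2 difference of -0.73 in sham hearts (limma adjusted p = 1.08e-05) and -0.36 in infarcted hearts (adjusted p = 0.0212). Only its sham arrays were apart, as were those of 5.61% of all genes tested. The value in infarcted hearts no longer passed in 6 of the 8 fits that left out 1 array (limma adjusted p up to 0.0864). Nor did it pass with the mean of its probe sets or with no intensity trend (adjusted p up to 0.0792). Thrsp, a regulator of fat synthesis, had 2683, 1805, 1656 and 3646 units in dnPI3K MI and 4944, 4689, 4562 and 5678 units in Ntg MI hearts. It was lower there by -1.09 (limma adjusted p = 0.00142) and Kcnd2 by -0.83 (adjusted p = 0.00265). The arrays of both genes were apart, as were those of 7.94% of all genes tested. In dnPI3K against Ntg sham hearts, Me1 alone of the 13 passed, beside 1.15% of all genes, and the list median was 0.012, against -0.002 over all genes.

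In caPI3K against dnPI3K hearts, these 3 genes were higher in infarcted hearts: Thrsp by 1.61, Kcnd2 by 0.89 and Me1 by 0.54 (limma adjusted p of 3.41e-06, 0.000787 and 0.000312), each under all 16 alternatives, beside 4.24% of all genes that passed. The list median in these infarcted hearts was 0.13, against -0.005 over all genes. In sham hearts 4 of the 13 were higher, Thrsp (1.41), Ucp3 (1.17), Me1 (1.04) and Kcnd2 (0.74), and Ppargc1a was lower (-1.12), with a list median of -0.19, where 5.38% of all genes were higher and 4.52% lower. Kcnd2 and Ucp3 fell outside the 3 of smallest p and were named after their values were seen. Without the sham arrays numbered 415 to 418, Kcnd2 and Ucp3 did not pass (limma adjusted p = 0.169 for Kcnd2). Leaving out caPI3K sham replicates 1 to 3 for their Y-linked signal leaves only replicate 4, so the calls in sham hearts could not be judged without them. Against Ntg hearts, caPI3K hearts had 0 of the 13 past the threshold, in sham and in infarcted hearts.

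Of 7 genes known to be lowered by T3 in heart, 6 entered the model. Mme, which encodes the peptidase neprilysin, fell with infarction in dnPI3K hearts (-0.84, limma adjusted p = 0.00747), where 9.4% of all genes passed. In caPI3K and Ntg hearts 0 of the 6 passed, beside 1.11% and 0.773% of all genes. The list medians were -0.18 in dnPI3K, -0.10 in caPI3K and -0.14 in Ntg hearts. Adcy6, an adenylyl cyclase gene, was lower in caPI3K than in dnPI3K hearts, by -0.67 in sham (limma adjusted p = 0.000637) and -0.47 in infarcted hearts (adjusted p = 0.0269), where the second value no longer passed in 6 of the 8 fits that left out 1 array and the first no longer passed without the arrays with Y-linked signal (adjusted p = 0.174).

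Other lists cover genes that act before and beside the receptors, and in caPI3K against dnPI3K hearts, where most of their calls lay, 9.9% of all genes passed in sham and 4.24% in infarcted hearts. Of 10 genes of T3 transport and binding, 5 entered the model and 0 passed with infarction. Ttr, which encodes the carrier transthyretin, was lower in caPI3K MI than in dnPI3K MI hearts (-2.23, limma adjusted p = 0.035), and that call was lost in 7 of the 8 fits that left out 1 array. Of 14 receptor partners, coactivators and corepressors, 12 entered and 0 passed with infarction, and Ncoa3, a coactivator, was lower in caPI3K than in dnPI3K sham hearts (-0.42, limma adjusted p = 0.0184), which no longer passed without the arrays with Y-linked signal (adjusted p = 0.174), without the sham arrays numbered 415 to 418 (0.0959) or with the mean of its probe sets (0.249). Of 12 names of selenoprotein synthesis and deiodinase turnover, which include an older and a newer name of 1 gene, 11 entered and 0 passed with infarction. Pstk, a kinase of the selenocysteine pathway that deiodinases need, was higher in caPI3K than in dnPI3K hearts, by 0.49 in sham and 0.59 in infarcted hearts (limma adjusted p of 0.000452 and 0.000131), but with the mean of its probe sets neither passed (adjusted p of 0.112 and 0.402), and without the arrays with Y-linked signal the value in sham hearts did not pass (adjusted p = 0.104). Pstk was also lower in dnPI3K MI than in Ntg MI hearts (limma adjusted p = 0.0314), where 2.59% of all genes passed. That call was lost in 4 of the 8 fits that left out 1 array, with the mean of its probe sets, with no intensity trend and without the arrays with Y-linked signal. Of 6 transcripts of the imprinted region that holds Dio3, 4 entered and 0 passed with infarction. Meg3, a noncoding RNA of that region, differed by 0.50 with infarction in caPI3K hearts (limma adjusted p = 0.0719) and by -0.43 in caPI3K against dnPI3K sham hearts (adjusted p = 0.0432), a call that was lost in 6 of the 8 fits that left out 1 array and under 5 of the 8 other alternatives.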

How the data were processed

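The 24 arrays, 1 per heart RNA sample, fell into 6 groups of 4, which were taken from the sample titles. The deposited table holds 1 signal intensity per probe set and array, made by the authors with MAS5 per the submitters' processing notes, with a version not given in the sources used here. Intensities were on a linear scale, already scaled to a trimmed mean of 500.003 to 500.004 per array, and no detection calls were used. Here log2(signal + 11.3) was taken, and the 33023 probe sets above their array's 40th percentile on at least 4 arrays were kept. Of 45101 probe sets, 64 were controls, 34945 named 1 gene in the platform annotation, 932 named several and 9160 named none. Each gene was represented by its probe set of highest mean signal, which gave 14753 genes.

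A 6-group linear model was fitted with limma 3.58.1 in R 4.3.3, with an intensity trend, and p-values were Benjamini-Hochberg adjusted over all genes at 0.05. A difference is on the log2(signal + 11.3) scale, which understates changes of dim genes. The members, the gene lists and the tests were chosen with earlier results of these data known, so an adjusted p of a member is not independent evidence. Dio2 stood among those earlier results and is given with no p-value. Comparisons of genotypes within infarcted hearts were added after the data were seen. From each pathway list, up to 3 genes that passed were named per comparison by smallest p, further ones only where 5 or fewer passed and after their values were seen, and up to 2 genes without a verb of change where none passed. For likeness, the 3 genes of highest Pearson r with a member were named, and 5 for Dio2. The script was tested on simulated data. Promoters came from RefSeq on build GRCm38.p6. No label ties an array to an animal, although hearts were homogenized one by one, so the spread behind the p-values is that between arrays and may be technical, and the number of arrays limits the precision. Alternatives covered the pseudocount, the filter, quantile normalization, the mean of probe sets, no intensity trend, and leaving out single arrays, leaving out or blocking 4 sham arrays with neighbouring numbers, and 3 arrays with Y-linked signal. Dio3 was not analysed here, because no probe set named it.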

Additional observations from a re-analysis of the deposited data

Results flagged for a closer look

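On 4 of the 72 combinations of a member probe set and a group, 1 array stood far from the other 3, measured as its gap to the nearest array over the whole range of the group. Chance alone gives about 1 in 20 such groups. For Dio1, Ntg sham replicate 1 had 4.68 on the log2(signal + 11.3) scale, against 3.84 to 3.95 on the other arrays of that group, and caPI3K sham replicate 4 had 5.46, against 3.74 to 3.92. For the dimmer of the kept Rxra probe sets, 1425762_a_at, Ntg MI replicate 3 had 7.67, against 8.10 to 8.18. For the Thra probe set 1443952_at, caPI3K MI replicate 3 had 8.57, or 368.7 units, against 501.0 to 532.6 units on the other arrays. None of these 3 probe sets represented its gene in the model. No difference between infarction effects of the genotypes passed the threshold for a member.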

How the results depend on the processing

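Over the members and all alternatives, 1145 values were recomputed: 1134 stayed on the same side of the threshold, 10 lost it, 1 passed it newly, and 0 reversed direction after passing. Most of these values belong to comparisons that did not pass in the main model, where staying on the same side says little about stability. Among values that never passed, 126 changed sign. The lost values were 7 infarction changes of Dio2, 4 of them on its dimmer probe sets, and 3 values of the Rxrg difference between dnPI3K sham and Ntg sham hearts. The cause was not tested. Numbers of genes past the threshold moved more. With the mean of all kept probe sets, they were 63 for MI in Ntg hearts, 111 for dnPI3K sham against Ntg sham and 18 for caPI3K sham against Ntg sham. With no intensity trend, they were 30 for MI in Ntg hearts, 69 for MI in caPI3K hearts, 107 for dnPI3K sham against Ntg sham, 0 for caPI3K sham against Ntg sham and 243 for dnPI3K MI against Ntg MI. Without the sham arrays numbered 415 to 418, they were 9 for MI in Ntg hearts, 666 for MI in dnPI3K hearts, 41 for dnPI3K sham against Ntg sham, 5 for caPI3K sham against Ntg sham, 609 for caPI3K sham against dnPI3K sham, and 2 and 1 for the MI effect in dnPI3K and in caPI3K minus that in Ntg hearts. Without the 3 arrays with Y-linked signal, they were 9 for MI in caPI3K hearts, 4 for caPI3K sham against Ntg sham, 234 for caPI3K sham against dnPI3K sham and 1 for the MI effect in caPI3K minus Ntg hearts. Leaving out 1 array at a time gave 843 to 1334 for MI in dnPI3K hearts, 70 to 168 for MI in caPI3K hearts, 25 to 672 for MI in Ntg hearts, 79 to 188 for dnPI3K sham against Ntg sham, 10 to 412 for caPI3K sham against Ntg sham, 984 to 1321 for caPI3K sham against dnPI3K sham, 217 to 493 for dnPI3K MI against Ntg MI, 0 to 2 for caPI3K MI against Ntg MI, 392 to 578 for caPI3K MI against dnPI3K MI, and 0 to 1, 0 to 2 and 0 to 4 for the differences of MI effects. The highest values of 672 and 412 came without Ntg sham replicate 4. No paired analysis was possible because the array numbers in the labels pair no single array with another across groups. With the sham arrays numbered 415 to 418 as a block, added after the data were seen, 176 genes passed for dnPI3K sham against Ntg sham and no gene of the set changed its call. Signals near the background, such as those of Dio1, limit what can be measured.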
